A study of Mus musculus with 48 samples.

Results

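Matrix metalloproteinases (MMPs) and their tissue inhibitors (TIMPs) were followed in the dentate gyrus of mice after intrahippocampal kainate, a glutamate receptor agonist that provokes seizures. The 10 genes described here, the MMPs Mmp2, Mmp3, Mmp9, Mmp12, Mmp14 and Mmp19 and the inhibitors Timp1, Timp2, Timp3 and Timp4, were chosen by name and found by their Ensembl identifiers among the 55357 genes of the count table. All 10 were among the 21390 genes with enough counts to be tested. RNA came from 24 C57BL/6J mice, wild type and 6-8 weeks old by the sample labels (the study's methods state an older range), which had received kainate or saline into the hippocampus of one hemisphere and were killed 3, 7 or 14 days later. From each mouse the dorsal dentate gyrus of the injected side (epileptogenic zone, EZ) and of the opposite side (peri-ictal zone, PIZ) gave 1 library each, so that each of the 12 combinations of region, injection and day held 4 libraries, from 2 males and 2 females. All kainate mice had behavioural seizures, and the saline mice went through the same surgery, so the effect of the surgery itself is shared by both arms and was not measured against intact mice.

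MMPs are zinc-dependent endopeptidases that are made as inactive precursors, opened outside the cell by other proteases, and that cleave extracellular matrix, cell surface receptors and cytokines. TIMPs bind the active site of MMPs and block it. In the brain both families are made by glia, blood vessels, meningeal fibroblasts, invading leukocytes and, for some members, neurons, and they are known for their part in opening of the blood-brain barrier, matrix remodelling around synapses and scar formation. The measurements are of mRNA, and neither protein nor enzyme activity was measured.

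On GRCm39 with the Gencode M39 annotation, Timp1 (ENSMUSG00000001131) spans chrX:20736316-20740976 on the plus strand and lies within Syn1, with no shared exon bases. Mmp12 (ENSMUSG00000049723, chr9:7344381-7369499) and Mmp3 (ENSMUSG00000043613, chr9:7445822-7455975) lie on the plus strand of the same stretch of chromosome 9. Timp2 (ENSMUSG00000017466, chr11:118191887-118246566, minus strand) shares 332 exon bases with Cep295nl on its own strand, so a part of its counts could belong to that gene, and Mmp14 (ENSMUSG00000000957) lies at chr14:54668878-54682821. The others lie apart, Mmp2 at chr8:93553902-93580049, Mmp9 at chr2:164780439-164797771, Mmp19 at chr10:128626773-128636695, Timp3 at chr10:86136236-86185371 and Timp4 at chr6:115187773-115229336, and Timp3 and Timp4 overlap the synapsin genes Syn3 and Syn2 on the opposite strand. Exon bases are also shared with opposite-strand genes by Mmp19 (1084 with Tmem198b and 218 with Gm47093), Mmp2 (860 with Gm45472), Mmp14 (219 with Gm62879) and Mmp12 (157 with Mmp1b). Counting was by strand. The promoters of Mmp3, Mmp12 and Timp1 are shown because the first pair had almost no counts outside the kainate EZ and were high in the same mice, and because Timp1 was called in more comparisons than any other member. The sequences are RefSeq windows on GRCm38.p6, 5′ to 3′, of 250 bases before and 50 bases after the transcription start, with matches to the AP-1 motif TGANTCA in capitals. AP-1 is the dimer of Fos and Jun proteins, which neuronal activity and inflammatory signals induce.
Mmp3, chr9:7445572-7445871, plus strand: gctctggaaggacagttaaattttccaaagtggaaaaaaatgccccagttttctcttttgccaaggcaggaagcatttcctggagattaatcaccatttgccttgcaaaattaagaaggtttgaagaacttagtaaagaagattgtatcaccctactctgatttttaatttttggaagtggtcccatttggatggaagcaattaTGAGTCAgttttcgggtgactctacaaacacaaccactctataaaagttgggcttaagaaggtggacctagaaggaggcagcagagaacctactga
Mmp12, chr9:7347124-7347423, plus strand: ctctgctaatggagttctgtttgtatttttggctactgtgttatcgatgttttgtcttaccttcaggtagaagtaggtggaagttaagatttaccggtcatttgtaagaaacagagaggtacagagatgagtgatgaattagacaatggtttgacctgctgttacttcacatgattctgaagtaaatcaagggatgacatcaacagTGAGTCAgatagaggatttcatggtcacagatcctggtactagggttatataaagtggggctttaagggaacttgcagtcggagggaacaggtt
Timp1, chrX:20869916-20870215, plus strand: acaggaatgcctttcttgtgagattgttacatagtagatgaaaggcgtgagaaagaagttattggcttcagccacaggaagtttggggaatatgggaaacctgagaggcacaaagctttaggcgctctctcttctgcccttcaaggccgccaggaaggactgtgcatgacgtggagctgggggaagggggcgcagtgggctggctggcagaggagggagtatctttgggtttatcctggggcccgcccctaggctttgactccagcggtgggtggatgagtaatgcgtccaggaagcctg
The motif was searched on both strands, which for these palindromic letters gives the same matches, and 7 of the 10 members had a window in the RefSeq table (Mmp2, Mmp9 and Mmp19 did not match). One match stood in the Mmp3 window, its first base at -46 from the start, and 1 in the window of the second Mmp12 start, at -44. The Timp1, Timp2, Timp3, Timp4 and Mmp14 windows and that of the first Mmp12 start held none, against 7.81% of all 32851 windows in the table that held at least 1. Only these exact letters were searched, so near matches, such as TGAGTAA in the Timp1 window, were not counted. The STAT motif TTCNNNGAA, present in 8.3% of all windows, was found in none of the members. The windows of Timp2 and Timp3 held 25 and 24 CG dinucleotides, those of Timp1 and Mmp14 8 and 10, and that of Mmp3 1.

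The libraries held between 17762656 and 25712975 counts, and levels are given as raw counts for genes of low abundance and otherwise as CPM, counts scaled to a common library size after TMM correction for differences in composition. A change was called when edgeR's quasi-likelihood test gave a Benjamini-Hochberg adjusted p below 0.01 and a fold change (FC) above 1.5. Errors are SD over 4 mice for levels and standard errors (SE) for log2 FC. The tissue was bulk dentate gyrus, so fewer cells of a type and less RNA per cell cannot be told apart. The PIZ libraries of mice 18 (saline, day 3), 21 (kainate, day 7) and 39 (saline, day 14) stood apart, with summed ventral dentate markers of 559, 685 and 582 CPM against 22.7 to 178 CPM in the other 45 libraries, although the study's methods name the dorsal dentate gyrus. Where leaving them out changed a call or moved a PIZ value or a difference between regions by more than 1.5 times, the value without them is also given. This was not done for Mmp3 and Mmp12, which had almost no counts in the PIZ. Among the day-14 kainate mice, mouse 27 had the highest EZ level of 9 of the 10 genes, and its values are given beside the day-14 results.

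**Figure D1:**
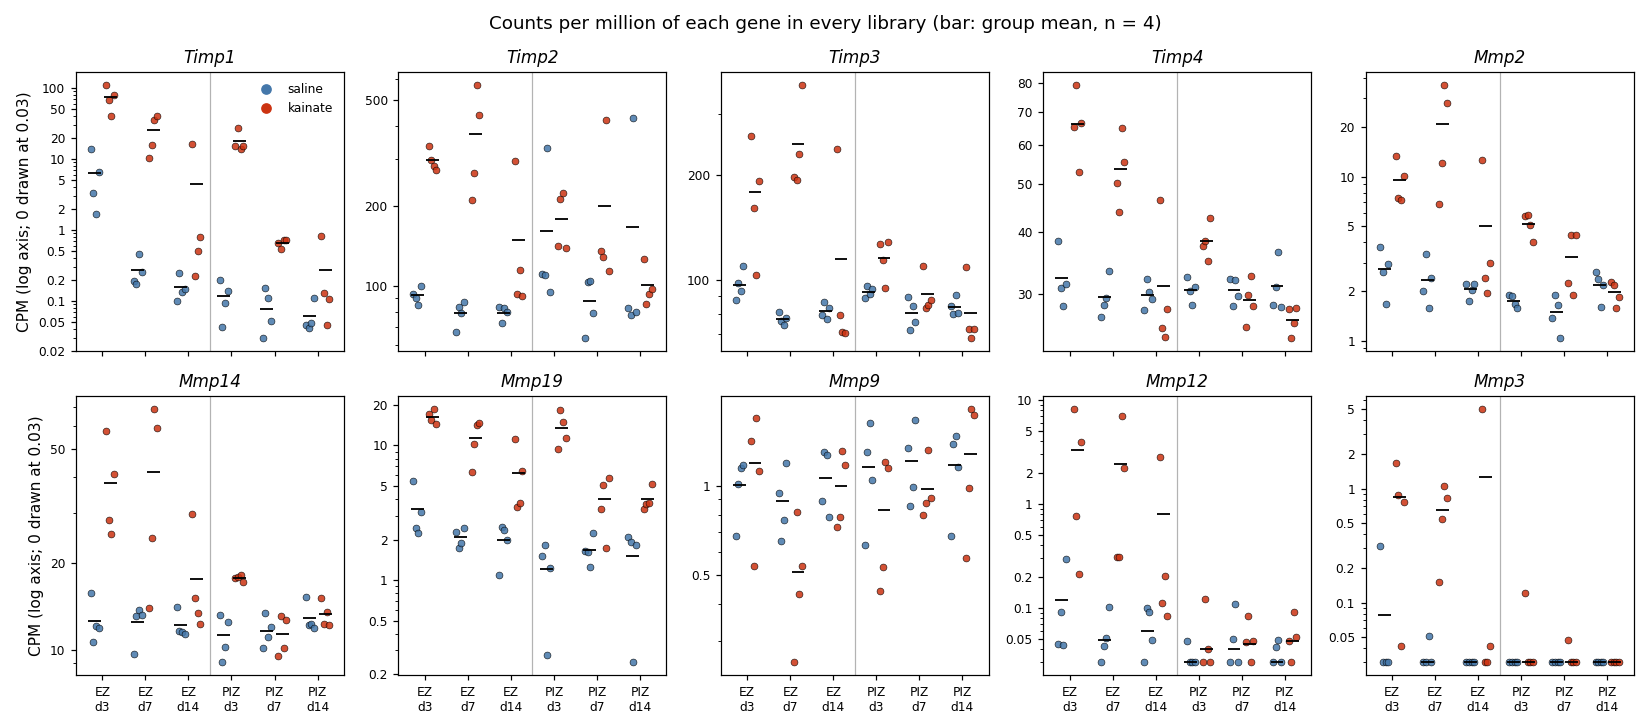
Level of each of the 10 genes in all 48 libraries (CPM, log axis, libraries with no count drawn at the bottom), by region, injection and day, with each group's mean as a line. At day 3 the 4 kainate EZ libraries held 962 to 2918 counts of Timp1 and the 4 kainate PIZ libraries 319 to 657.

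Kainate raised most of the 10 genes in the EZ at days 3 and 7. The 10 genes were chosen with earlier results of these data known, so their share called is no test against that of all genes. In the EZ, 8 of the 10 genes were upregulated at day 3 and 8 at day 7, when 24.7% and 32.5% of all tested genes were called in either direction. These were Mmp2, Mmp12, Mmp14, Mmp19 and the 4 TIMPs on both days, and none was downregulated. Mmp12 had more than 6 counts only in kainate EZ libraries. It passed the filter on low counts through them, so its calls are not independent of that filter. At day 14 only Timp1 was called in the EZ, against 2.36% of all genes, or 504 genes, and 7 genes were called without mouse 27. In the PIZ, Mmp2, Mmp19 and Timp1 were upregulated at day 3, when 8.69% of all genes were called. No member was called in the PIZ at day 7 (0.201% of all genes) or day 14 (0.014%), by edgeR or by DESeq2, although 4 and 1 members had an unadjusted p below 0.05, as did 14.5% and 5.97% of all genes. The median log2 FC of the 10 members in the EZ was 1.75, 2.34 and 1.09 at days 3, 7 and 14, while that of all genes was 0.032, 0.011 and 0.003. At day 14 the median over the 9 members other than Mmp3 was 0.90, and 0.26 without mouse 27. In the PIZ the medians over the 8 members with counts above the floor were 0.50, 0.64 and -0.01, and 0.69, 0.37 and 0.14 without the 3 PIZ libraries that stood apart.

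Timp1, a secreted inhibitor that cytokines and injury induce in astrocytes and other cells, had the highest FC of the 4 inhibitors in the EZ at each time. In the day-3 EZ the counts were 310, 72, 38 and 134 in saline mice and 2918, 1778, 962 and 2226 in kainate mice. The lowest kainate library lay above the highest saline library, with means of 75.2 ± 29.5 against 6.37 ± 5.44 CPM (SD, n = 4 each), a log2 FC of 3.56 ± 0.65 (adjusted p = 3.18e-05, edgeR). In the day-3 PIZ the saline counts were 4, 1, 2 and 3 and the kainate counts 371, 657, 351 and 319, so the groups were again apart, and the summed counts gave a 156-fold ratio (95% counting interval 84.4 to 325). The test in the PIZ gave a log2 FC of 7.20 ± 0.97 (adjusted p = 2.49e-06, edgeR). By level, the day-3 kainate PIZ at 17.8 ± 6.10 CPM remained below the day-3 kainate EZ.

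The 2 regions differed for Timp1 already in saline mice. At day 3 the saline EZ held 38 to 310 counts and the saline PIZ 1 to 4, with no overlap, and the difference was called (log2 difference 5.72, adjusted p = 0.00615, edgeR). The summed counts, 554 against 10, gave a 55.4-fold ratio (95% counting interval 29.9 to 116). Between the same libraries summed astrocyte markers were 5340 to 8090 CPM in the EZ and 3500 to 4840 CPM in the PIZ (1 of 6 called), and summed microglia markers 519 to 884 and 300 to 421 CPM (none of 8 called). Their part in the Timp1 difference was not tested. Timp1 was 1 of the genes that made up the 0.0281% called between the saline regions at day 3, and the single member. The call was lost when any of the 4 mice was left out (adjusted p from 0.0304 without mouse 18 to 0.309 without mouse 29), and without the 3 PIZ libraries that stood apart (5.64, adjusted p = 0.0816), while the difference stayed between 5.32 and 5.96. These fits did not use the pairing of the regions by mouse. With mouse as a replicate block, which does, Timp1 was called, while a fit to the compared groups alone did not call it. By days 7 and 14 the saline EZ held 4, 4, 9 and 5 and then 2, 5, 3 and 3 counts, and no member was called between the saline regions (0% and 0% of all genes called, with 325 and 517 genes at an unadjusted p below 0.05, DESeq2 calling 0 members on either day). In the saline EZ, day 14 against day 3 gave a log2 difference of -5.29 ± 0.96 for Timp1 (adjusted p = 0.0252, edgeR), not called, where 0% of all genes were called and 1236 had an unadjusted p below 0.05. DESeq2 called that difference (-5.34, adjusted p = 1.45e-05). The FC of the day-3 EZ was thus set against a saline group well above the later saline groups.

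Timp1 remained high in the kainate EZ at day 7, with 201, 401, 888 and 972 counts. All 4 values exceeded the highest saline count of 9, and the log2 FC was 6.54 ± 0.87 (adjusted p = 1.23e-07, edgeR), or a 98.2-fold ratio of summed counts (95% counting interval 64.7 to 157). In the day-7 PIZ the kainate mice had 14, 13, 16 and 15 counts and the saline mice 0, 3, 2 and 1. These groups did not overlap, but the difference missed the threshold (log2 FC 3.00 ± 1.41, adjusted p = 0.313, edgeR). At day 14 the kainate EZ counts were 353 in mouse 27 and 4, 10 and 19 in the other mice, overlapping the saline range of 2 to 5. The called log2 FC of 4.77 ± 0.98 (adjusted p = 0.00234, edgeR) fell to 1.71 (adjusted p = 1) without mouse 27, and the call was also lost without any one of the saline mice 24, 28, 39 and 31 (adjusted p from 0.0119 to 0.0185). It was lost as well in a fit to the compared groups alone and with mouse as a replicate block. The PIZ library of mouse 27 held 17 Timp1 counts, against 3, 1 and 2 in the other kainate mice.

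Timp2, an inhibitor that is present throughout the adult brain and that also takes part in activation of pro-MMP2 on the cell surface, had the highest level per length of the 4 inhibitors in all 12 groups. In the EZ it measured 92.3 ± 6.43 CPM in saline and 297 ± 26.7 CPM in kainate mice at day 3, with kainate values of 335, 296, 284 and 274 CPM. The log2 FC was 1.69 ± 0.45 (adjusted p = 0.00202, edgeR), and no kainate library overlapped the saline range of 84.8 to 100.1 CPM. At day 7 the kainate EZ measured 212, 267, 572 and 439 CPM and the saline EZ 67.3 to 87.4 CPM, a log2 FC of 2.23 ± 0.45 (adjusted p = 7.96e-05, edgeR). At day 14 mouse 27 was at 295 CPM and the others at 93.2, 115 and 91.5 CPM. All 4 were above the saline range of 72.7 to 83.2 CPM, but the difference was not called (0.90 ± 0.44, adjusted p = 0.27, edgeR, and 0.33 without mouse 27).
In the PIZ, Timp2 turned on the 3 libraries with ventral markers. These measured 330, 420 and 426 CPM, whereas the other 21 PIZ libraries ranged from 63.8 to 224 CPM. The day-3, day-7 and day-14 PIZ log2 FC of Timp2 were 0.15 ± 0.43, 1.18 ± 0.44 and -0.72 ± 0.44, none called (adjusted p = 0.84, 0.182 and 0.922, edgeR), and 0.76, 0.52 and 0.33 without the 3 libraries, also not called (adjusted p = 0.0516, 0.388 and 1). Other Timp2 differences also moved without the 3 libraries, and none was called with or without them. The kainate log2 FC in the EZ minus that in the PIZ went from 1.63 to 0.57 at day 14. The PIZ log2 FC at day 7 minus that at day 3 went from 1.03 to -0.24. Between the saline EZ and PIZ the log2 difference went from -0.81 to -0.20 at day 3 and from -1.07 to -0.01 at day 14. Timp2 and the ventral markers rose together in these libraries, and the part of tissue position in the PIZ values of Timp2 was not tested further than by leaving the libraries out.

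**Figure D2:**
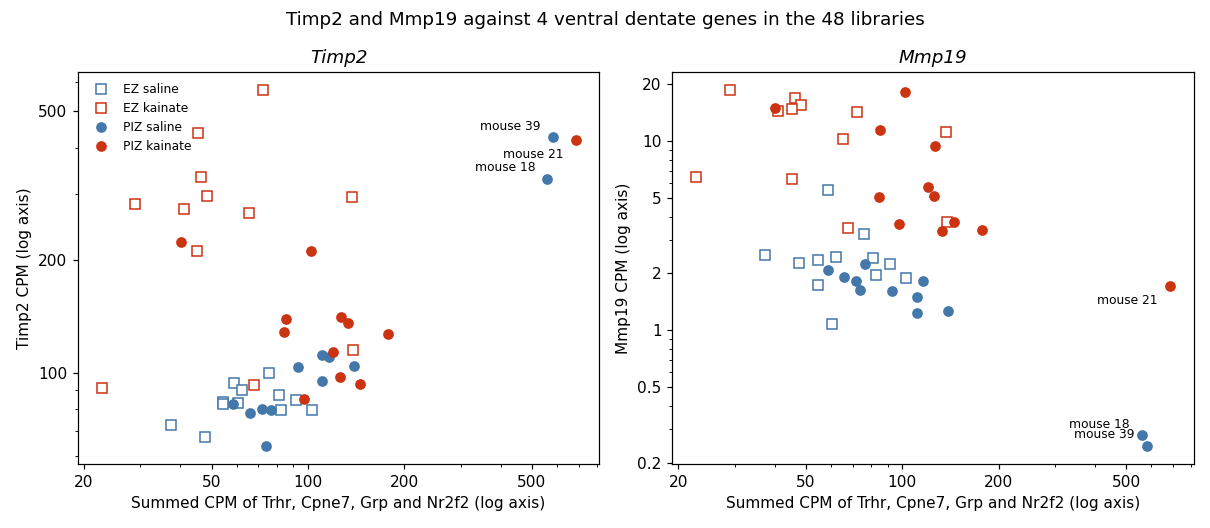
Timp2 (left) and Mmp19 (right) levels (CPM) against the summed level of the ventral dentate markers (CPM) in 48 libraries, EZ as open squares and PIZ as filled circles. The 3 PIZ libraries at 559 to 685 CPM of ventral markers hold 330 to 426 CPM of Timp2.

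Timp3, which stays bound to the matrix and also inhibits several ADAM proteinases, rose in the EZ at days 3 and 7. The kainate EZ at day 3 measured 258, 160, 103 and 192 CPM against 87.5 to 110 CPM in saline, so mouse 44 lay within the saline range. The log2 FC was 0.88 ± 0.25 (adjusted p = 0.00352, edgeR), and the call was lost without mouse 38 (0.65, adjusted p = 0.0421), without mouse 29, 37, 42 or 18 (adjusted p from 0.0106 to 0.014), and in a fit to the compared groups alone (0.84, adjusted p = 0.0137). At day 7 the kainate values of 197, 193, 230 and 363 CPM all lay above the saline range of 74.0 to 80.9 CPM, with a log2 FC of 1.67 ± 0.25 (adjusted p = 9e-07, edgeR). At day 14 mouse 27 measured 238 CPM and the other kainate mice 79.2, 71.0 and 70.3 CPM, and nothing was called (0.50 ± 0.25, adjusted p = 0.28, edgeR, and -0.14 without mouse 27).
Timp4, an inhibitor with high expression in the heart and in astrocytes of the brain, had the smallest SE of the 10 genes. In the EZ it rose from 32.3 ± 4.31 to 66.0 ± 10.9 CPM at day 3 (log2 FC 1.03 ± 0.14, adjusted p = 3.09e-07, edgeR) and from 29.6 ± 2.76 to 53.6 ± 8.86 CPM at day 7 (0.86 ± 0.14, adjusted p = 2.1e-06, edgeR). The lowest kainate libraries, 52.8 CPM at day 3 and 43.9 CPM at day 7, were above the highest saline libraries, 38.4 and 33.4 CPM. At day 14 the kainate EZ was at 31.2 ± 10.3 CPM and the saline EZ at 29.9 ± 1.82 CPM. In the day-3 PIZ the kainate range of 34.9 to 42.7 CPM was above the saline range of 28.6 to 32.4 CPM, without a call (0.33 ± 0.14, adjusted p = 0.077, edgeR). In the day-14 PIZ all 4 kainate libraries lay below the saline range of 28.2 to 36.5 CPM, also without a call (-0.22 ± 0.14, adjusted p = 0.924, edgeR).

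Per kilobase of merged exons, which allows genes to be compared with each other, the 4 inhibitors summed to 39.99 CPM per kilobase in the day-3 saline EZ and 135 in the day-3 kainate EZ. At day 7 the sums were 31.2 and 133. The mean kainate sums were alike on these days while the mean Timp1 shares were further apart, and neither was tested between days. Timp1 made up 27.6% ± 5.76 of the inhibitor sum in the day-3 kainate EZ and 9.08% ± 2.44 in the day-7 kainate EZ, and 7.73% ± 6.09 and 0.442% ± 0.216 in the saline EZ (SD, n = 4). Timp2 made up 50.3% ± 7.93 and 61.6% ± 6.11 in kainate and 51.9% ± 2.85 and 56.9% ± 2.81 in saline. In the PIZ the Timp1 share was 13.2% in kainate and 0.136% in saline mice at day 3.

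**Figure D3:**
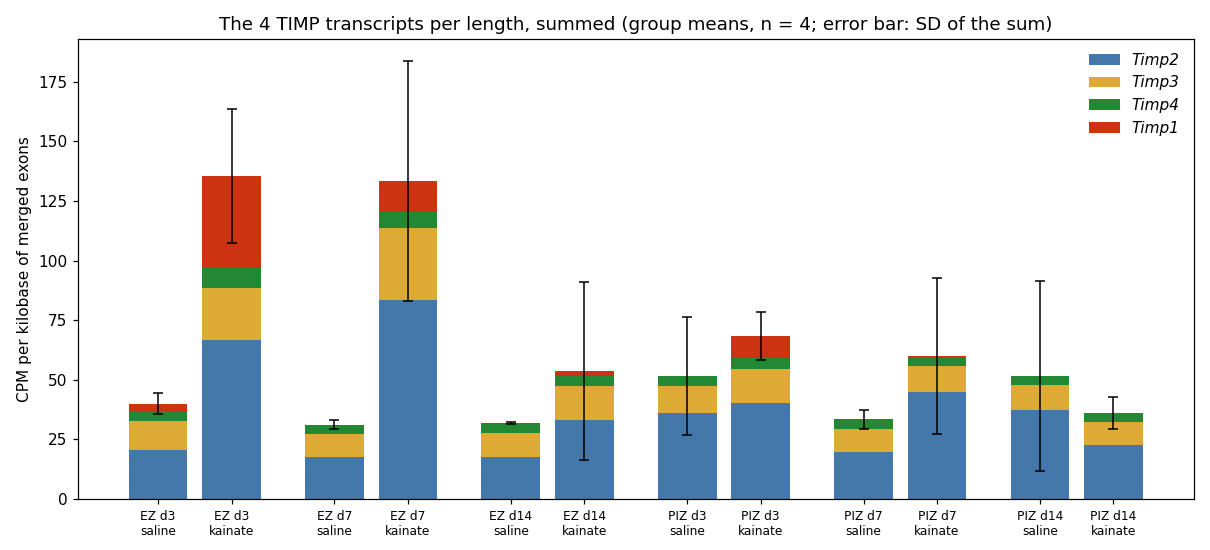
Summed level of the 4 TIMPs (CPM per kilobase of merged exons) in the 12 groups, stacked by gene as means over 4 mice, with the SD of the sum as error bar. The kainate EZ bars at days 3 and 7 reach 135 and 133, and Timp1 makes up 27.6% of the first and 9.08% of the second.

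Mmp2 and Mmp9 are the gelatinases, which digest denatured collagen and basement membrane collagen. Mmp2 in the EZ had 83, 57, 38 and 60 counts in saline and 348, 195, 172 and 279 in kainate mice at day 3, and 43, 78, 31 and 47 against 134, 313, 931 and 682 at day 7. On both days every kainate library was above every saline library, and the log2 FC was 1.80 ± 0.41 (adjusted p = 0.00048, edgeR) and 3.15 ± 0.43 (adjusted p = 1.65e-07, edgeR). At day 14 mouse 27 had 278 counts and the others 43, 39 and 71, against 35 to 45 in saline, with no call (1.28 ± 0.42, adjusted p = 0.071, edgeR, and 0.26 without mouse 27). In the day-3 PIZ the counts were 39, 43, 36 and 35 in saline and 143, 142, 128 and 84 in kainate mice. These groups did not overlap and the change was called (1.56 ± 0.43, adjusted p = 0.00704, edgeR), but the call was lost on leaving out any mouse except 42 (adjusted p in the 7 lost fits from 0.0155 without mouse 38 to 0.0273 without mouse 41). It was also lost without the 3 PIZ libraries that stood apart (1.54, adjusted p = 0.0211) and with mouse as a replicate block (1.55, adjusted p = 0.0338, limma-voom).
Mmp9, much studied in epilepsy as an enzyme that neurons release on activity, was scarce and was called in none of the comparisons. Its counts lay between 5 and 40 in all 48 libraries. In the EZ kainate and saline mice had 14 to 40 and 15 to 26 counts at day 3, 5 to 21 and 15 to 23 at day 7, and 14 to 28 and 16 to 28 at day 14, so that the groups overlapped at each time. The log2 FC was 0.24 ± 0.35 at day 3 (adjusted p = 0.597, edgeR) and -0.76 ± 0.39 at day 7 (adjusted p = 0.0922, edgeR). The ratio of summed counts was 1.18 at day 3 (95% counting interval 0.888 to 1.57) and 0.601 at day 7 (0.411 to 0.873). These intervals cover counting error alone, without the spread between mice.

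Mmp14, the membrane-anchored MMP that activates pro-MMP2, made up the greatest share of MMP counts per length in the saline EZ (50.6% at day 3) and measured 12.6 ± 2.20 CPM there. With kainate the EZ reached 57.5, 28.2, 25.2 and 40.8 CPM at day 3 and 14.0, 24.4, 68.8 and 58.9 CPM at day 7. All of these were above the saline ranges of 10.7 to 15.8 and 9.70 to 13.7 CPM, although mouse 23 at day 7 was close to its saline group. The log2 FC was 1.58 ± 0.29 (adjusted p = 3.15e-05, edgeR) and 1.74 ± 0.29 (adjusted p = 4.64e-06, edgeR), and the day-7 call was lost in a fit to the compared groups alone (1.73, adjusted p = 0.0163). At day 14 it was 0.54 ± 0.29 (adjusted p = 0.326, edgeR, and 0.16 without mouse 27), with 29.8 CPM in mouse 27 and 12.3 to 15.2 CPM in the others. In the day-3 PIZ kainate mice measured 17.3 to 18.2 CPM and saline mice 9.06 to 13.2 CPM. These did not overlap but were not called (0.66 ± 0.29, adjusted p = 0.092, edgeR), and a fit to the compared groups alone did call them (adjusted p = 0.00212).
Mmp19, a secreted MMP without a known main substrate in the brain, rose in both regions at day 3. In the EZ saline mice had 122, 53, 51 and 66 counts and kainate mice 444, 404, 445 and 397. In the PIZ saline mice had 31, 42, 6 and 27 counts and kainate mice 233, 445, 374 and 239. The groups were apart in both regions, with log2 FC 2.29 ± 0.40 in the EZ (adjusted p = 1.71e-05, edgeR) and 3.47 ± 0.44 in the PIZ (adjusted p = 6.87e-07, edgeR). The saline PIZ count of 6 came from mouse 18, whose PIZ library stood apart, and without the 3 such libraries the PIZ log2 FC was 3.15 (adjusted p = 4.8e-07). At day 7 the EZ values were 48, 40, 37 and 47 against 124, 263, 364 and 355 counts (2.46 ± 0.41, adjusted p = 5.07e-06, edgeR), and the day-7 PIZ was not called (1.23 ± 0.42, adjusted p = 0.139, edgeR). At day 14 the EZ of all 4 kainate mice, with 246, 62, 74 and 155 counts, was above the saline range of 22 to 52, and the log2 FC of 1.65 ± 0.41 just missed the threshold (adjusted p = 0.0108, edgeR). It was called without mouse 36 (1.85, adjusted p = 0.00404) or mouse 14 (1.83, adjusted p = 0.005), by DESeq2 (adjusted p = 0.00193), and without the 3 PIZ libraries (adjusted p = 0.00176), while without mouse 27 it was 1.21 (adjusted p = 0.545). In the day-14 PIZ all 4 kainate mice, with 71 to 98 counts, were also above the saline range of 5 to 46, with no call (1.39 ± 0.43, adjusted p = 0.342, edgeR, and 1.04, adjusted p = 0.499, without the 3 PIZ libraries).

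Mmp3 (stromelysin-1, which activates other pro-MMPs) and Mmp12 (macrophage metalloelastase) had almost no counts outside the kainate EZ. Mmp3 was at 0 in 34 of the 48 libraries. In the day-3 EZ the counts were 7, 0, 0 and 0 in saline and 44, 23, 1 and 21 in kainate mice, and in the day-7 EZ 0, 0, 1 and 0 against 3, 14, 27 and 20. The summed counts, 89 against 7 and 64 against 1, gave ratios of 10.7 (95% counting interval 4.98 to 27.3) and 56.2 (9.72 to 2250). Neither passed the test over mice (adjusted p = 0.0515 and 0.0233, edgeR), though the day-7 difference was called with mouse as a replicate block (adjusted p = 0.00321, limma-voom). At day 14 the kainate EZ held 111 counts in mouse 27 and 0, 0 and 1 in the others, and the saline EZ held none. Set against 3 counts over the saline group, the limit that 0 counts allow, the group was at least 36.9-fold higher, with nearly all counts from 1 mouse. In the PIZ Mmp3 was at 0 except for 3 counts in mouse 38 at day 3 and 1 in mouse 23 at day 7.
Mmp12 in the day-3 EZ had 1, 2, 1 and 6 counts in saline and 214, 20, 5 and 108 in kainate mice. At day 7 the saline counts were 0, 1, 1 and 2 and the kainate counts 6, 8, 177 and 53. Mouse 44 at day 3, with 5 counts, overlapped the saline range, and at day 7 the groups were apart. The ratios of summed counts were 29.2 (95% counting interval 15.7 to 61.4) and 53.5 (20.6 to 198), and both were called (adjusted p = 0.00023 and 0.000148, edgeR), but neither with mouse as a replicate block (adjusted p = 0.0161 and 0.0209, limma-voom), and in a fit to the compared groups alone Mmp12 did not pass the filter on low counts and was not tested. At day 14 mouse 27 had 62 counts and the others 2, 4 and 2, against 0 to 2 in saline. In the PIZ no library had more than 3 counts. Mmp3 and Mmp12 were highest in the same kainate mouse in each of the 3 EZ groups, mouse 38 at day 3, mouse 21 at day 7 and mouse 27 at day 14.

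Per kilobase, the 6 MMPs summed to 4.10 CPM per kilobase in the day-3 saline EZ and 14.7 in the day-3 kainate EZ, and to 3.53 and 16.7 at day 7. In the day-3 PIZ the sums were 2.98 and 8.41. There Mmp14 made up 61.1% of the sum in saline and 34.8% in kainate mice, and Mmp19 11.3% and 44.7%. With the longest transcript as length the kainate shares were 47.5% for Mmp14 and 35.2% for Mmp19, so their order in kainate mice depends on the length used. In the day-7 EZ the share of Mmp2 was 18.8% in saline and 34.1% in kainate mice.

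**Figure D4:**
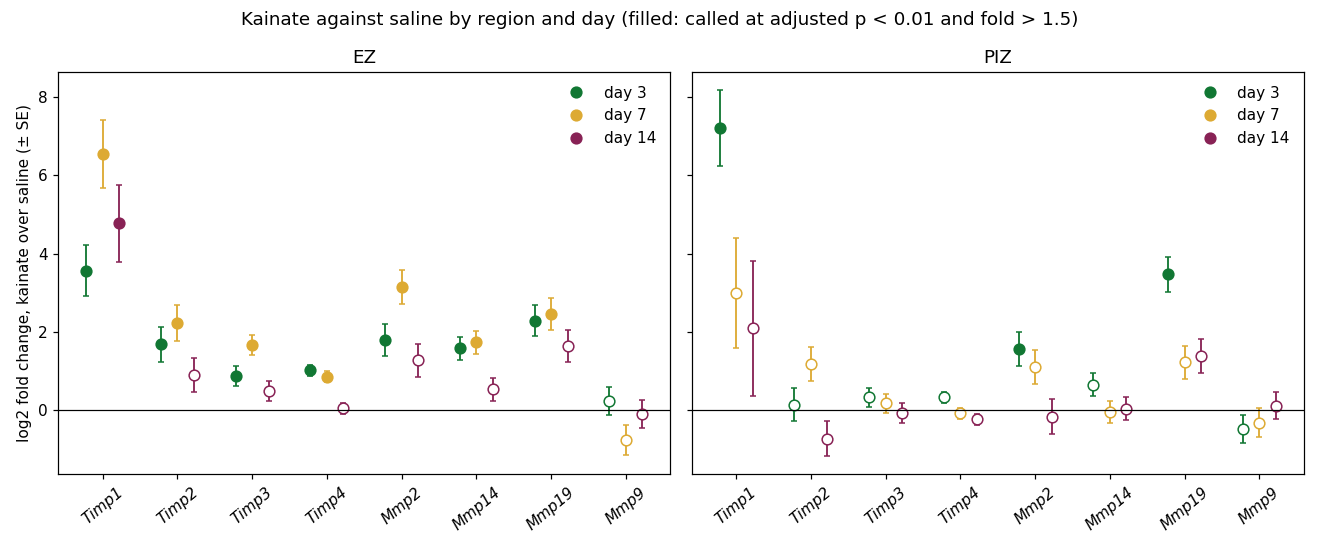
Kainate against saline log2 FC (± SE) of 8 members at days 3, 7 and 14 in the EZ and the PIZ, filled where called and open where not. Mmp3 and Mmp12 are left out because their counts in the saline groups and the PIZ were near 0. Timp1 has the highest value in the EZ panel on each day, 3.56, 6.54 and 4.77.

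Whether kainate acted more in one region than in the other was tested as the difference of the 2 log2 FC, EZ minus PIZ. At day 7 it was called for 3 members, Mmp14 (1.77 ± 0.41, adjusted p = 0.00332, edgeR), Timp3 (1.49 ± 0.35, adjusted p = 0.00362) and Timp4 (0.93 ± 0.19, adjusted p = 0.00208), where 9.89% of all genes were called. All 3 had PIZ values at day 7 that overlapped between kainate and saline. In the same comparison 8 of 8 microglia, 3 of 6 astrocyte and 2 of 6 monocyte and macrophage markers were called as higher and none of the other cell type lists had a call, and their part in the member differences was not tested. Without mouse 21 almost no gene of the whole table was called in this comparison, so these marker calls also depended on that mouse. With mouse as a replicate block, which uses the pairing of the regions by mouse, all 3 members were called. The member calls of the main fit depended on single mice and, for Mmp14, on the groups fitted. That of Mmp14 was lost without mouse 89, 33, 20, 34, 21 or 35 (1.37, adjusted p = 0.0394, without mouse 21) and in a fit to the compared groups alone (1.79, adjusted p = 0.0236), that of Timp3 without mouse 89, 20, 34, 21 or 35 (1.23, adjusted p = 0.0225, without mouse 35), and that of Timp4 without mouse 89, 20, 21 or 35 (0.88, adjusted p = 0.0236, without mouse 21). Without the 3 PIZ libraries that stood apart, Mmp14 (1.72, adjusted p = 0.0115) and Timp3 (1.45, adjusted p = 0.0122) were not called, Timp4 still was (0.98, adjusted p = 0.00719), and Timp2 was called instead (1.70, adjusted p = 0.00809, against 1.04 ± 0.62 with them). Mmp2 had a difference of 2.04 ± 0.61 that missed the threshold (adjusted p = 0.0131, edgeR) and passed it without mouse 23 or 26 and by DESeq2.
At day 3, when 0.0655% of all genes differed in this way, edgeR called no member, DESeq2 called none, and 5 had an unadjusted p below 0.05, as did 17.9% of all genes. The differences for Timp1 and Mmp19 were negative, -3.64 ± 1.25 (adjusted p = 0.125, edgeR) and -1.18 ± 0.57 (adjusted p = 0.266, and -0.86 without the 3 PIZ libraries), and those for Timp2 and Timp4 positive, 1.54 ± 0.62 (adjusted p = 0.187, and 0.92, adjusted p = 0.209, without the 3 PIZ libraries) and 0.71 ± 0.19 (adjusted p = 0.0619). With mouse as a replicate block Timp1 was called (-3.61, adjusted p = 0.00288, edgeR). Its kainate level was nonetheless higher in the EZ, and the negative sign went with the saline EZ counts of 38 to 310. At day 14 no member was called and 0% of all genes, with 2 members and 1562 genes (7.30%) at an unadjusted p below 0.05 and no member by DESeq2.

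Over time, the difference of the kainate effect in the EZ between days 7 and 3 was called for no member (0.145% of all genes called), with 3 members and 2565 of the 21390 genes at an unadjusted p below 0.05 and none called by DESeq2. Between days 14 and 7, when 0.271% of all genes were called, the differences were -0.80 ± 0.19 for Timp4 (adjusted p = 0.0141, edgeR), -1.18 for Timp3 (adjusted p = 0.0257), -1.86 for Mmp2 (adjusted p = 0.0326) and -1.20 for Mmp14 (adjusted p = 0.0413). None passed the threshold with all mice, and 5 members had an unadjusted p below 0.05, as did 33.1% of all genes. DESeq2 called Timp4 (-0.78, adjusted p = 0.0045). Without mouse 27, 5 members were called as lower at day 14, Timp4 (-1.06, adjusted p = 6.21e-06), Mmp2, Mmp14, Timp1 and Timp3, where 18.8% of all genes were called. Without mouse 23, Mmp2, Mmp14, Timp3 and Timp4 (-0.83, adjusted p = 0.00344) were called among 10.7% of all genes, and without mouse 26 Timp4 (-0.88, adjusted p = 0.00556) among 4.57%. In the PIZ the day-7 and day-3 effects were not called as different for any member (0.0234% of all genes called, 2 members and 10.6% of all genes at an unadjusted p below 0.05, 0 members by DESeq2). Mmp19 in the PIZ had the value of -2.24 ± 0.60 (adjusted p = 0.127, edgeR), and -1.66 (adjusted p = 0.326) without the 3 PIZ libraries.

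Among the other MMP genes, 17 were listed and 11 tested, of which 4 rose in the EZ at day 3, 5 at day 7, and none in the PIZ at day 3 or the EZ at day 14. Over all genes 24.7%, 32.5%, 8.69% and 2.36% were called in these comparisons, and the same shares stand behind the list counts that follow. Mmp8, the neutrophil collagenase, had 73, 18, 4 and 68 counts in the day-3 kainate EZ and 1, 0, 0 and 1 in saline, and 2, 2, 55 and 47 against 0, 0, 0 and 1 at day 7. Mmp11 (stromelysin-3) had a log2 FC of 2.32 and 1.93 on these days, and Mmp15, a membrane-type MMP, 1.14 and 0.90, called on both. Mmp25, another membrane-type MMP, was called at day 7 (1.97) and not at day 3 (0.87). Mmp27 was counted in the kainate EZ and in no other group, with 40, 5, 0 and 26 counts at day 3. The day-7 kainate mice had 1, 4, 55 and 45 counts of Mmp27, and at day 14 mouse 27 had 11 and the others none. It was not called (adjusted p = 0.0359 and 0.0158, edgeR) and was singled out after its values were seen. Mmp1a, Mmp1b and Mmp20 had no counts in any library, and Mmp7 at most 2.
Of the genes that activate, inhibit or clear MMPs by other routes, 16 were listed and 15 tested. In the EZ 10 rose and 1 fell at day 3, 11 rose and 1 fell at day 7, and 3 rose at day 14 (none without mouse 27), and in the day-3 PIZ 6 rose. The matrix protein Thbs1, which binds MMP2 and MMP9, had a log2 FC of 5.18 and 5.06 in the EZ at days 3 and 7, the broad protease inhibitor A2m 3.01 and 5.17, and the urokinase receptor Plaur 3.66 and 3.11. Serpini1, a neuronal inhibitor of tissue plasminogen activator, was the one that fell (-2.09 and -1.96).
Of 16 ADAM and ADAMTS genes, the related families of membrane and secreted proteinases, 8 rose in the EZ at day 3 and 8 at day 7, with 1 in the day-3 PIZ, a share below that of all genes, and none in the day-14 EZ. Adamts12 had a log2 FC of 2.10 and 3.84, Adam12 2.56 and 2.08, and the aggrecanases Adamts5 2.32 and 2.37 and Adamts1 2.05 and 2.19.

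Marker genes of cell types moved with the same comparisons, in which 24.7% (EZ, day 3), 32.5% (EZ, day 7), 2.36% (EZ, day 14) and 8.69% (PIZ, day 3) of all genes were called. In the EZ at day 3, 7 of 8 microglia markers, 4 of 6 of infiltrating monocytes and macrophages, 4 of 6 of astrocytes, 3 of 5 of endothelium and 5 of 6 of meninges and fibroblasts rose. At that time 3 of 5 granule cell markers, 1 of 3 tested of choroid plexus, 1 of 4 of thalamus and 1 astrocyte marker fell, and 0 of 5 oligodendrocyte, 0 of 2 tested neutrophil, 0 of 4 dorsal and 0 of 4 ventral dentate markers were called. In the EZ at day 7, 8 of 8 microglia, 5 of 6 monocyte and macrophage, 5 of 6 meningeal, 4 of 6 astrocyte, 3 of 5 endothelium, 1 of 5 oligodendrocyte and 1 of 4 thalamus markers rose, and 2 of 5 granule cell and 1 of 3 tested choroid plexus markers fell. In the EZ at day 14, when Timp1 was the member called, 6 of 8 microglia and 3 of 6 astrocyte markers rose and none of the other lists of cell types or dentate position had a call. Without mouse 27 no marker of any list was called there, and none was in a fit to the compared groups alone or with mouse as a replicate block. In the PIZ at day 3, 8 of 8 microglia and 4 of 6 astrocyte markers rose, 2 granule cell markers fell, and 0 of 6 monocyte and macrophage and 0 of 6 meningeal markers were called. The members called in that PIZ comparison were Mmp2, Mmp19 and Timp1.
Within the kainate EZ the summed meningeal and fibroblast markers were 354, 98.4, 69.3 and 144 CPM at day 3 in mice 38, 30, 44 and 42, in which Mmp2 had 348, 195, 172 and 279 counts and Mmp12 214, 20, 5 and 108. The same sum at day 7 was 39.7, 52.9, 352 and 258 CPM in mice 23, 26, 21 and 35, in which Mmp2 had 134, 313, 931 and 682 counts. At day 14 it was 106 CPM in mouse 27 and 27.3, 22.7 and 31.2 CPM in the others. Microglia, the resident macrophages of the brain, are a known source of several MMPs. Summed microglia markers in the same EZ libraries were 2330, 1330, 1430 and 1780 CPM at day 3, 1540, 2230, 5690 and 4080 CPM at day 7, and 2820, 494, 559 and 691 CPM at day 14. Summed granule cell markers at day 7 were 668, 642, 124 and 230 CPM. Neutrophil markers summed to at most 4.46 CPM in any library. S100a9 reached 63 counts, S100a8 42 and Retnlg 15, while Ngp, Ly6g and Camp had at most 5, 3 and 2. In the day-3 EZ the neutrophil sum was 0.842 to 4.46 CPM in kainate and 0.0883 to 1.27 CPM in saline mice. The part of these cell types in the values of the MMPs and TIMPs was not tested.

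Likeness of pattern was measured as Pearson's r of mean log2 CPM over the 12 groups and is given as a description, since the groups share mice and many genes followed the same kainate course. Mmp3 and Mmp12 were each other's nearest gene among all tested (r = 0.991), both resting on few counts. The nearest genes were Ifi35 and Trim56 for Mmp2 (0.995 each), Ndst1 (0.99) and Bdnf (0.989) for Mmp14 and Tbc1d31 (0.989) for Mmp19. For the inhibitors they were Tgm1 (0.994) and Hspb6 (0.993) for Timp1, Podn (0.991) for Timp2, Tor1aip2 (0.995) for Timp3 and Angptl4, Flt4 and Metap2 (0.99 each) for Timp4. Mmp9 had no gene above 0.928 (Gnb5), and its r with the other members lay between -0.752 and -0.444.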

How the data were processed

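Messenger RNA of 48 libraries from 24 mice was measured by stranded, polyA-selected, paired-end sequencing. The authors trimmed reads with fastp 0.20.1, used HISAT2 2.2.1 for alignment to GRCm39 and assigned the alignments to genes of Gencode M28 with featureCounts (Subread 1.6.4). The deposited values are raw integer counts, 1 per gene and library, that were not normalized. A read with several alignments was counted at its primary one, so genes with close relatives are less certain. Nothing was left out of the 48 columns. For positions and lengths, 98.9% of identifiers were matched to Gencode M39.

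Counts were analysed in R 4.3.3 with edgeR 4.0.16 (filterByExpr, TMM, quasi-likelihood test on 12 group means over all 48 libraries, Benjamini-Hochberg adjustment over the 21390 genes tested). Groups came from the sample labels, and 16 comparisons were made. The smallest p an exact permutation test of 4 against 4 allows is 0.0286, so single-gene permutation tests were not used. Library totals of 17762656 to 25712975 mean that a gene at 3 counts per library is near the floor, and counting intervals (95%, exact) cover counting error only. Alternatives were RLE size factors, library size alone, no filter, DESeq2 1.42.0, the compared groups only, a mouse block (limma 3.58.1, or edgeR where a comparison lies within mice), leaving out each mouse, and, chosen after seeing the data, leaving out the 3 PIZ libraries with ventral markers. The EZ and PIZ libraries with one number come from the same mouse, which makes them pairs. Correlations of their deviations from the group means ran from -0.054 to 0.376. The scripts were tested on simulated data. The members and gene lists were chosen with earlier results of these data known. Named genes of other lists were, per list, the 4 with the largest change among those called in the EZ at day 3 or 7. One gene that this rule names is not reported here. Lists held other MMPs, MMP activators, inhibitors and clearance, ADAM and ADAMTS genes, and markers of microglia, monocytes and macrophages, neutrophils, astrocytes, endothelium, meninges and fibroblasts, choroid plexus, granule cells, oligodendrocytes, thalamus and dorsal and ventral dentate gyrus.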

Additional observations from a re-analysis of the deposited data

Results flagged for a closer look

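In each group of 4 libraries the highest and lowest values of each gene were set against the rest by Dixon's rule at the 95% level, which flags about 1 in 20 groups by chance. It flagged 12 of the 102 sets of values examined. Mouse 27 had the flagged values of Mmp3 (5.03 CPM, 111 counts) and Timp3 (238 CPM) in the day-14 kainate EZ and of Timp3 (109 CPM) in the day-14 kainate PIZ, all above the other kainate mice. The PIZ libraries with high ventral markers had the flagged values of Timp2, 330 CPM in mouse 18, 420 CPM in mouse 21 and 426 CPM in mouse 39, and of Mmp19, 0.245 CPM in mouse 39, the lowest of its group. In saline mice Mmp3 was at 0.315 CPM (7 counts) in the day-3 EZ of mouse 29 and at 0 in the other 3, and Mmp14 was lowest in the day-7 EZ of mouse 89 (9.70 CPM) and highest in mouse 24 at day 14, in the EZ (14.1 CPM) and in the PIZ (15.2 CPM). In the day-3 kainate PIZ, Timp1 was highest in mouse 30 (26.9 CPM).

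The kainate effect at day 7 differed between regions, by an interaction test, for Mmp14 (1.77), Timp3 (1.49) and Timp4 (0.93), each as log2 FC in the EZ minus log2 FC in the PIZ. The dependence of these 3 on single mice is given in the report.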

How the results depend on the processing

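None of the 24 member calls over the 16 comparisons changed sign under any alternative, while 29 of the 136 values that were not called did under at least 1, among them Timp2 in the day-14 PIZ (-0.72, and 0.33 without the 3 PIZ libraries) and, without mouse 27, Timp3 (0.50 to -0.14) and Timp4 (0.06 to -0.20) in the day-14 EZ. Of the 20 member calls over the 6 comparisons of kainate with saline, 14 were made in every alternative and without each mouse. In the day-14 EZ, 2 members were called with RLE size factors (2.44% of all genes), without the filter on low counts (1.26%), by DESeq2 (3.44%) and without the 3 PIZ libraries that stood apart (2.10%), and 0 in a fit to the compared groups only and with mouse as a replicate block. Leaving out 1 mouse at a time gave 0 to 3 calls there. The count of members whose kainate effect differed between regions was 1 at day 3 under the replicate block and ranged from 0 to 4 at day 7 without each mouse. For day 14 minus day 7 in the EZ it was 1 by DESeq2 and 0 to 5 without each mouse. For the saline EZ against the saline PIZ at day 3 it was 0 in the compared groups only, 0 without the 3 PIZ libraries and 0 without each mouse, and for the saline EZ at day 14 against day 3 it was 1 by DESeq2. Counts over all genes also changed between several of these fits, in part given below, so the member counts cannot be read apart from them. The cause of these changes was not tested. Under the replicate block, which uses the pairing of regions by mouse, 7 members were called in the EZ at day 3 (24.2% of all genes), 8 at day 7 (32.5%) and 2 in the PIZ at day 3 (7.30%).

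Counts over all genes moved more. The day-14 EZ had 504 calls, 0 in the compared groups only, 0 under the block, and 7 without mouse 27. The day-7 EZ had 6960 and 3847 in the compared groups only. The difference between regions at day 7 had 2115 calls, 1159 in the compared groups only, 557 without the 3 PIZ libraries and 1 without mouse 21. DESeq2 called 195 genes in the PIZ at day 7 against 43, 99 against 14 for the difference between regions at day 3, and 851 against 58 for day 14 minus day 7 in the EZ. Scaling by library size alone moved the median of all genes to 0.159 in the day-3 EZ and 0.111 in the day-3 PIZ, and the share of higher calls in the day-3 EZ from 65.1% to 76.3%. Depth limits Mmp3 and Mmp12 outside the kainate EZ and Timp1 in the saline PIZ and the saline EZ at days 7 and 14, which lie near the floor of 3 counts.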
